A study of Mus musculus with 18 samples.

Results

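The 42 genes described here make up the interferon response, in the form of 30 antiviral genes and 5 interferon-inducible GTPases, and the processing of antigens for MHC class I, with 7 genes. They were chosen by name, and each was read from the probe set that carries its symbol alone in the array's annotation; where several probe sets did, the brightest by the mean over the 18 arrays was taken. By this rule 40 of the 42 genes had a value, of 18194 genes on the array. Isg15 was read only by a probe set shared with another gene and Ifi44 by none of its own, so neither has a value. Of the 40 measured genes 38 exceeded the 40th percentile of all probe sets on 3 or more arrays and were tested, together with the rest of 13679 genes. Mx1 and Oas3 did not, with log2 levels between 3.11 and 3.69 and between 3.32 and 3.98 over the 18 arrays.

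Primary fibroblasts, the cells of connective tissue, had been grown from mouse embryos of day 14 after head and liver were taken off, and stood for some hours in an albumin-based medium before TGF-β1 was added. They came from 3 embryos labelled NFI-C knock-out, meaning that Nfic, which encodes a DNA-binding protein of the nuclear factor I family, was to be inactive, and from 3 wild-type embryos. For each embryo there was an untreated culture, one given TGF-β1 at 12.5 ng/ml for 1 h and one given it for 10 h, which gave 6 groups of 3 arrays, and the 3 arrays of a group came from separate embryos. The labels give neither the strain nor the part of Nfic that was deleted. The untreated cells were not held for 10 h in parallel as far as the labels say, so TGF-β1 and the hours in culture cannot be told apart at 10 h. All levels are log2 expression values, and all changes are differences of them with their standard errors.

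Interferons are secreted when sensors in the cytoplasm meet viral nucleic acid. Type I interferon acts through its receptor and JAK kinases on the factor ISGF3, made of STAT proteins and IRF9, which binds a DNA element called ISRE and switches on antiviral genes. Interferon-γ acts through a STAT dimer on a second element, GAS, and raises IRF1, the GTPases that attack intracellular parasites and the machinery that cuts proteins into peptides and loads them on MHC class I. Fibroblasts hold many of these genes at a low standing level without added interferon.

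The level of Nfic did not separate the genotypes. Its brightest probe set read 10.43, 9.89 and 10.72 in untreated cells labelled knock-out, against 10.51, 10.36 and 10.49 in untreated wild-type cells. Over its 5 probe sets the difference in untreated cells, knock-out minus wild type, ran from -0.42 to 0.03. Where the probes lie relative to the deletion is not known here, so these values do not check the labels. Any 2 arrays of a group correlated at 0.987 or more. The 10 h array of wild-type embryo 2 stood apart, with 107 genes over 1 log2 unit below the group mean, against 0 to 43 on the other 17 arrays. By the SD of the deviations from the group mean over all tested genes, the 10 h array of knock-out embryo 1 was the most deviant, at 0.254. That SD was 0.252 on the 10 h array of wild-type embryo 2 and 0.21 or less on the rest. The fibroblast markers Col1a2, Fn1 and Col1a1 averaged 14.08, 14.01 and 13.85. Macrophage markers were present too: all 17 on the list passed the filter, and Lyz2, Csf1r and Ctss averaged 12.63, 10.85 and 10.47. Of the endothelial and epithelial markers 4 of 8 and 4 of 6 passed, with Egfl7 at 6.63 and Epcam at 6.21.

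RefSeq promoters of build GRCm38.p6, from 250 bases before to 50 after a gene's start, were on hand for 34 of the 42 genes. The ISRE core GAAANNGAAA, searched on both strands, occurred in 18 of these 34 genes, that is in 12 of 23 antiviral genes, 5 of 5 GTPases and 1 of 6 antigen processing genes. Counted by promoter, 47.4% of the members' 38 windows held it, against 3.44% of all 32851 windows. The GAS element TTCNNNGAA occurred in 10 of the 34 genes, and in 26.3% of the members' windows against 8.3% of all windows. The stretches shown are those of 2 antiviral genes, Ifit1 and Bst2, of the GTPases Gbp2, Irgm2 and Irgm1, and of B2m, the only antigen processing gene with a match. The plan named the antiviral gene with a match and the lowest wild-type change, which is Ifit3. Ifit1 was shown in its place, because the promoter window of Ifit3 lies inside the annotated gene. Bst2 and Irgm1 were chosen after their values were seen, because the first was not called and the second moved upward. Each stretch is written 5′ to 3′ on the gene's strand, and capitals mark the ISRE cores of either strand, some of which overlap.
Ifit1, chr19:34640774-34640823, plus strand: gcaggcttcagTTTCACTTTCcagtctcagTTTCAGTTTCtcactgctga
Bst2, chr8:71537570-71537619, minus strand: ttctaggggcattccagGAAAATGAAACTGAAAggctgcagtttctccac
Gbp2, chr3:142620584-142620633, plus strand: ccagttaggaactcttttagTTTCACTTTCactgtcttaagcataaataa
Irgm2, chr11:58214893-58214942, plus strand: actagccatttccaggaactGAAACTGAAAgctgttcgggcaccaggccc
Irgm1, chr11:48871421-48871470, minus strand: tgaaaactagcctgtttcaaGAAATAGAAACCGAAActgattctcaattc
B2m, chr2:122147528-122147577, plus strand: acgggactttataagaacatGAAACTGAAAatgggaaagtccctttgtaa

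Tap1 and Psmb9 lie head to head, and the 225 bases between their starts serve as upstream sequence of both. The interval is shown because Tap1 was called lower at 10 h in both genotypes and Psmb9 in neither; it holds no ISRE core.
Tap1 to Psmb9 interval, chr17:34187331-34187555, plus strand: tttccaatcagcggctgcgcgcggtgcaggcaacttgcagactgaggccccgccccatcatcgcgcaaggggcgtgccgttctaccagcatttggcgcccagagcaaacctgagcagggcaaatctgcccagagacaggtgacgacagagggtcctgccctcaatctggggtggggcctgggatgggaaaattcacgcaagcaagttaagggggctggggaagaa
The calls at 10 h can be set beside the matches. Among tested members with a match, 4 of 16 were called lower in cells labelled knock-out and 10 of 16 in wild-type cells. Among those without one, 6 of 15 and 10 of 15 were. Ifit2 counts among the latter, though its windows lie largely or wholly inside the annotated gene. Over all tested genes 20.7% and 18.8% were called lower.

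After 10 h of TGF-β1 the group mean was below the untreated one for 33 of 40 measured members in cells labelled knock-out. In wild-type cells this held for 32 of 40. The median change of all tested genes was -0.03 and 0.01. By embryo, 19, 32 and 38 of 40 members stood lower in embryos 1, 2 and 3 labelled knock-out, and 37, 27 and 35 in the wild-type embryos. With limma and a Benjamini-Hochberg adjusted p threshold of 0.05 over all tested genes, 10 of the 38 tested members were called lower in cells labelled knock-out, where 20.7% of all tested genes were called lower. In wild-type cells 21 of 38 were called lower, where 18.8% of all tested genes were. One member, Irgm1, was called higher, in cells labelled knock-out, where 13.9% of all tested genes were called higher; in wild-type cells none was, against 14.9%. The knock-out count moved with single arrays. With embryo as a block it was 16, where 24.2% of all tested genes were called lower. Without the 10 h array of knock-out embryo 1, a setting chosen after the data were seen, it was 19, against 17.8%. Without all arrays of embryo 2 or of embryo 3 it was 5 or 3, against 17.6% or 14.4%. The wild-type count was 25 with embryo as a block, against 22.6% of all tested genes. In wild-type embryos 2 and 3 the deviations from the group means correlated at only -0.06 and -0.20 between untreated and 10 h arrays. Blocked values and changes per embryo are therefore less sure in wild-type cells. It was 15 without the 10 h array of embryo 2, against 16.5%, and 12 without all arrays of embryo 3, against 13.5%. With the 10 h arrays of knock-out embryo 1 and wild-type embryo 2 both left out, 21 members were called lower in each genotype. The shares of all tested genes were then 19.1% in cells labelled knock-out and 17.2% in wild-type cells. All 3 arrays at 10 h lay below all 3 untreated ones for 12 of the 40 measured members in cells labelled knock-out, against 25.7% of all tested genes, and for 21 of 40 in wild-type cells, against 23.3%.

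By class, the antiviral genes had a median change of -0.48 in cells labelled knock-out and -0.75 in wild-type cells, with 7 and 14 of 26 tested genes called lower. The 5 GTPases had medians of -0.46 and -0.87, with 1 and 3 called lower. The antigen processing genes had medians of -0.20 and -0.39, with 2 and 4 of 7 called lower. The median over all tested genes was -0.03 in cells labelled knock-out and 0.01 in wild-type cells. Beside these class counts, 20.7% and 18.8% of all tested genes were called lower. The difference between the classes was not tested.

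**Figure D1:**
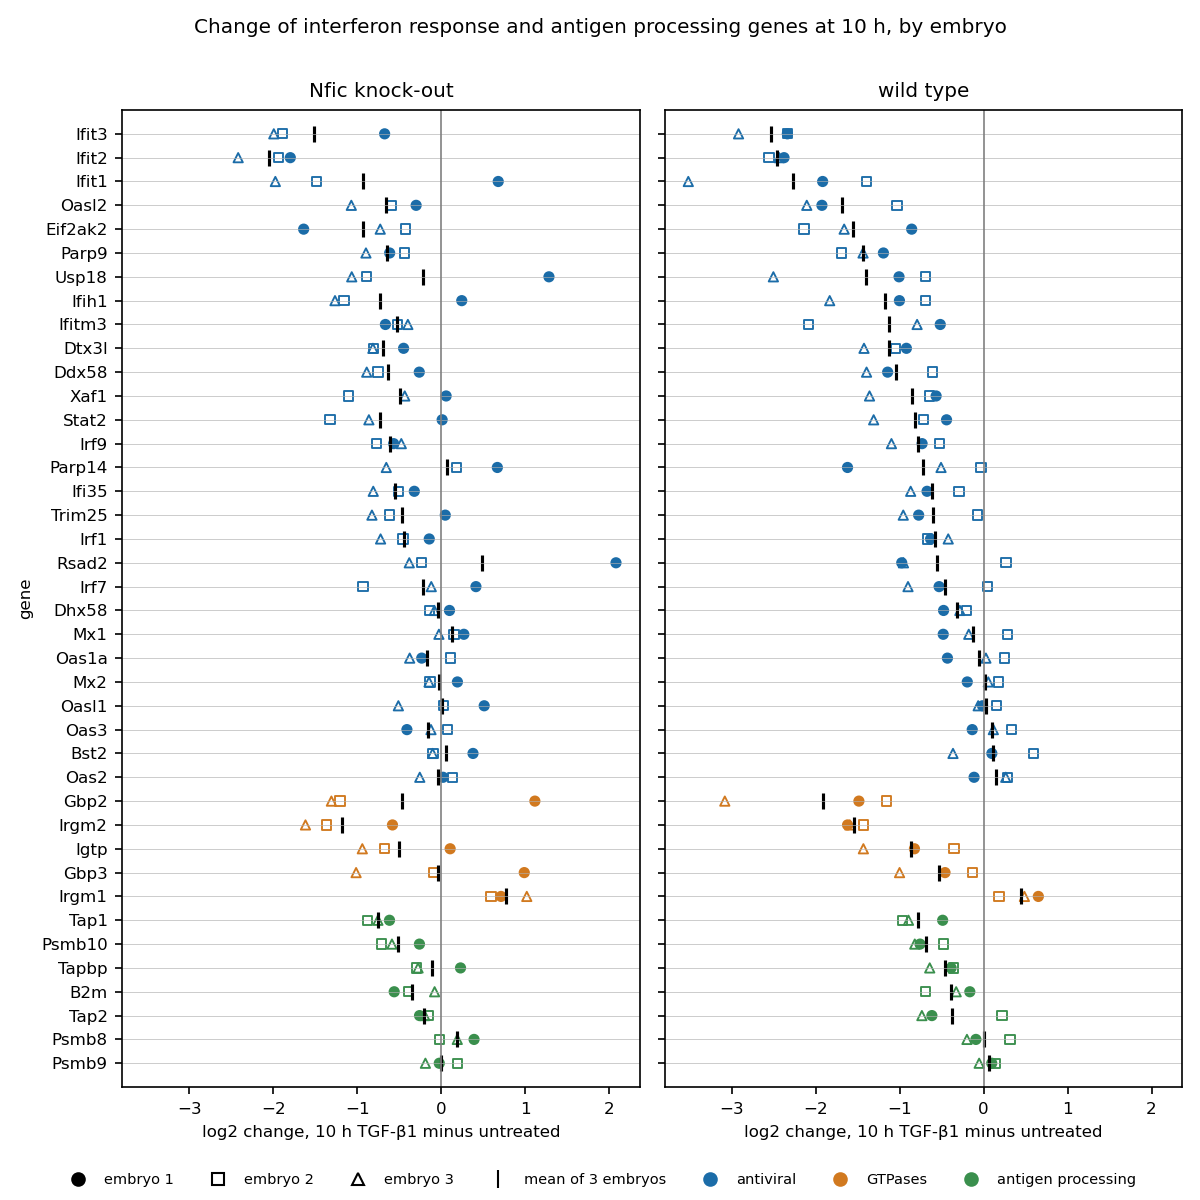
Log2 change of each of the 40 measured genes at 10 h (level at 10 h minus the untreated level of the same embryo) in cells labelled knock-out on the left and wild-type cells on the right; symbols are the 3 embryos, black ticks their mean, and colours the 3 classes. Ifit2 and Irgm2 lie left of zero in all 6 embryos and Irgm1 right of zero in all 6, while knock-out embryo 1 stands to the right for Rsad2, Usp18, Gbp2 and Ifit1.

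Among the sensors of viral RNA, Ddx58, which encodes RIG-I, fell in both genotypes. It read 8.56, 8.02 and 7.92 at 10 h against 8.82, 8.77 and 8.80 untreated in cells labelled knock-out, and 7.84, 7.96 and 7.67 against 8.98, 8.57 and 9.06 in wild-type cells. The 10 h arrays lay below all untreated arrays in each genotype, and the changes were -0.63 ± 0.16 (adjusted p = 0.00515) and -1.05 ± 0.16 (adjusted p = 0.000103). The knock-out call was kept under 17 of 20 settings. It was lost with the mean of all probe sets and without knock-out embryo 2 or embryo 3. The other probe sets of Ddx58 were not called in cells labelled knock-out, at -0.23 ± 0.19 and -0.30 ± 0.21. Ifih1, which encodes the long-RNA sensor MDA5, fell by 1.17 ± 0.35 in wild-type cells (adjusted p = 0.0175), a call lost without wild-type embryo 1 or embryo 3. In cells labelled knock-out its 10 h levels were 7.73, 6.08 and 5.94 against 7.48, 7.23 and 7.20, so that embryo 1 lay above all untreated arrays and the others below; the change was -0.72 ± 0.35, with an adjusted p of 0.129 without a block and 0.045 with embryo as a block. Dhx58, encoding the regulator LGP2, changed by -0.04 ± 0.13 and -0.32 ± 0.13; the second had an adjusted p of 0.0698, and 0.0178 with embryo as a block.

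Of the 4 transcription factors, Irf9, the DNA-binding part of ISGF3, was called lower in both genotypes, with changes of -0.60 ± 0.17 (adjusted p = 0.0101) in cells labelled knock-out and -0.78 ± 0.17 (adjusted p = 0.00187) in wild-type cells. Its knock-out call was kept under 18 of 20 settings and lost without knock-out embryo 2. Irf1, which acts downstream of interferon-γ, read 8.45, 7.74 and 7.40 at 10 h against 8.59, 8.19 and 8.12 untreated in cells labelled knock-out, and 7.50, 7.53 and 7.88 against 8.13, 8.20 and 8.30 in wild-type cells. The groups overlapped in cells labelled knock-out and not in wild-type cells. Its changes were -0.44 ± 0.20 (adjusted p = 0.102, and 0.0133 with embryo as a block) and -0.57 ± 0.20 (adjusted p = 0.0355). The wild-type call of Irf1 was kept under 15 of 20 settings and lost when any 1 wild-type embryo was left out. Stat2, the other ISGF3 partner listed, changed by -0.72 ± 0.37 and -0.82 ± 0.37 with adjusted p of 0.151 and 0.09997, and these were 0.0198 and 0.0105 with embryo as a block. Irf7, which amplifies type I interferon production, changed by -0.21 ± 0.24 and -0.46 ± 0.24 and was called in neither.

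The antiviral effectors held both the deepest falls and genes that were called in neither genotype, some of them dim. Of 12 tested, 3 were called lower in cells labelled knock-out and 6 in wild-type cells, against 20.7% and 18.8% of all tested genes. Ifit2, one of the IFIT proteins that bind viral RNA and block its translation, read 5.37, 4.83 and 4.57 at 10 h against 7.17, 6.77 and 6.98 untreated in cells labelled knock-out. Wild-type cells gave 5.07, 4.28 and 4.84 against 7.45, 6.83 and 7.28. The 10 h and untreated arrays were far apart in every embryo, the fall was 4.13-fold (log2 change -2.05 ± 0.21, adjusted p = 3e-06) and 5.48-fold (-2.46 ± 0.21, adjusted p = 6.15e-07), and Ifit2 was the only member called under all 20 settings in both genotypes. Ifit3 fell too, with changes of -1.52 ± 0.44 (adjusted p = 0.0139) in cells labelled knock-out and -2.53 ± 0.44 (adjusted p = 0.000403) in wild-type cells. Its knock-out call was kept under 17 of 20 settings and lost without knock-out embryo 2 or embryo 3. Ifit1, whose promoter stretch holds 2 separate ISRE cores, read 7.36, 4.05 and 3.89 at 10 h against 6.68, 5.53 and 5.87 untreated in cells labelled knock-out. In wild-type cells it read 5.37, 4.05 and 3.62 against 7.29, 5.45 and 7.14. Knock-out embryo 1 was the one embryo of 6 in which Ifit1 did not stand lower at 10 h. The change was -0.92 ± 0.73 (adjusted p = 0.366) in cells labelled knock-out. Without the 10 h array of embryo 1, left out after the data were seen, it was -2.05 (adjusted p = 0.00811). In wild-type cells it was -2.27 ± 0.73 (adjusted p = 0.0247), a call lost without wild-type embryo 1, embryo 3 or the 10 h array of embryo 2.

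Eif2ak2, which encodes the double-stranded RNA kinase PKR, fell, with changes of -0.93 ± 0.31 (adjusted p = 0.0309) in cells labelled knock-out and -1.55 ± 0.31 (adjusted p = 0.0013) in wild-type cells. It was lowest, not highest, on the 10 h array of knock-out embryo 1, at 6.09 against 7.13 and 6.72 in the others, and without that array the knock-out change was no longer called (adjusted p = 0.152). The knock-out call of Eif2ak2 was kept under 15 of 20 settings and was also lost without knock-out embryo 3. Oasl2, of the oligoadenylate synthetase family, and Ifitm3, which blocks virus entry, were called lower in wild-type cells, with changes of -1.69 ± 0.48 (adjusted p = 0.0122) and -1.13 ± 0.34 (adjusted p = 0.0162). Their knock-out changes were -0.65 ± 0.48 and -0.53 ± 0.34. With embryo as a block the adjusted p of Oasl2 there was 0.0172. The wild-type call of Oasl2 was lost without wild-type embryo 1 or embryo 3. Ifitm3 was low above all on 1 wild-type array, reading 11.71, 9.75 and 11.33 at 10 h.

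A second set of effectors did not pass the test in either genotype. Bst2, which encodes tetherin and tethers budding viruses to the cell, read 8.62, 7.35 and 7.74 at 10 h against 8.24, 7.44 and 7.84 untreated in cells labelled knock-out, and 8.80, 7.96 and 7.68 against 8.70, 7.36 and 8.04 in wild-type cells. Embryo 1 was high at both times and the groups overlapped, with changes of 0.06 ± 0.40 and 0.11 ± 0.40. Oas1a, Oas2, Oasl1 and the GTPase gene Mx2 changed by between -0.16 and 0.15 over both genotypes. Bst2 and Oas1a have ISRE cores in their promoter windows, as Ifit1 has. Ifit2, which fell in both genotypes, has no ISRE core in its windows. These reach little upstream of the annotated gene, which begins at chr19:34550550. The first window spans 34550444 to 34550743, and the second lies inside the gene. An ISRE core further upstream would have been missed. Rsad2, which encodes viperin, read 7.55, 4.70 and 4.83 at 10 h against 5.47, 4.93 and 5.21 untreated in cells labelled knock-out, and 5.44, 5.19 and 4.72 against 6.42, 4.92 and 5.67 in wild-type cells. Its changes of 0.49 ± 0.56 and -0.55 ± 0.56 did not pass, and the knock-out value is positive through embryo 1 alone.

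Of 7 regulators and other induced genes, 2 were called lower in cells labelled knock-out and 4 in wild-type cells, against 20.7% and 18.8% of all tested genes. Dtx3l and Parp9 encode a ubiquitin ligase and its ADP-ribosyltransferase partner. Dtx3l changed by -0.69 ± 0.24 (adjusted p = 0.0376) and -1.13 ± 0.24 (adjusted p = 0.00205). The first call was kept under 16 of 20 settings. It was lost without knock-out embryo 2, knock-out embryo 3 or wild-type embryo 3, among others. Parp9 changed by -0.65 ± 0.26 (adjusted p = 0.0635, and 0.002 with embryo as a block) and -1.44 ± 0.26 (adjusted p = 0.000499). Ifi35 fell in both, with changes of -0.54 ± 0.13 (adjusted p = 0.00364) and -0.61 ± 0.13 (adjusted p = 0.00168). Its knock-out call was lost without knock-out embryo 3. Xaf1, a pro-apoptotic gene, was called lower in wild-type cells at -0.86 ± 0.30 (adjusted p = 0.0359). The call was kept under 12 of 20 settings and lost when any 1 wild-type embryo was left out. Usp18, which removes ISG15 from proteins and damps the type I receptor, read 7.96, 5.29 and 4.82 at 10 h against 6.68, 6.18 and 5.89 untreated in cells labelled knock-out; the wild-type levels were 6.15, 5.16 and 4.39 against 7.16, 5.85 and 6.89. The wild-type change of -1.40 ± 0.63 had an adjusted p of 0.0961, and 0.0231 with embryo as a block. Trim25, the ubiquitin ligase of RIG-I, changed by -0.46 ± 0.26 and -0.60 ± 0.26, the second with an adjusted p of 0.0897, and 0.026 with embryo as a block. Parp14 changed by 0.07 ± 0.48 and -0.72 ± 0.48 and passed in neither.

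Among the GTPases, members of 1 family went opposite ways. Irgm2 read 6.16, 4.92 and 4.89 at 10 h against 6.74, 6.29 and 6.50 untreated in cells labelled knock-out, and 5.46, 4.85 and 5.21 against 7.08, 6.28 and 6.80 in wild-type cells. No 10 h array reached the untreated ones, and the changes were -1.19 ± 0.29 (adjusted p = 0.00424) and -1.55 ± 0.29 (adjusted p = 0.000625). The knock-out call of Irgm2 was lost without knock-out embryo 3. Irgm1, a regulator of the same immunity-related GTPase family, read 9.43, 9.50 and 9.24 at 10 h against 8.71, 8.90 and 8.22 untreated in cells labelled knock-out, and 9.22, 8.85 and 9.08 against 8.57, 8.67 and 8.60 in wild-type cells. It stood higher at 10 h in all 6 embryos, by 0.78 ± 0.18 (adjusted p = 0.00331) and 0.44 ± 0.18 (adjusted p = 0.0709, and 0.0102 with embryo as a block). The pairing by embryo is less sure for wild-type embryos 2 and 3. The knock-out call of Irgm1 was lost when both embryos numbered 1 were left out. Igtp, also of that family, fell, with a change of -0.87 ± 0.28 in wild-type cells (adjusted p = 0.0264), and changed by -0.50 ± 0.28 in cells labelled knock-out. Its wild-type call was kept under 16 of 20 settings and lost without wild-type embryo 1 or embryo 3.

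Gbp2, a guanylate-binding protein, read 8.49, 6.05 and 5.95 at 10 h against 7.38, 7.26 and 7.26 untreated in cells labelled knock-out, and 5.99, 6.00 and 4.68 against 7.47, 7.16 and 7.76 in wild-type cells. The untreated arrays labelled knock-out lay close together, and at 10 h embryo 1 went above them and embryos 2 and 3 below. The change was -0.46 ± 0.50 (adjusted p = 0.519) and, without the 10 h array of embryo 1, -1.29 (adjusted p = 0.00513). That array was left out after the data were seen, so the second value is a description. The wild-type fall was -1.91 ± 0.50 (adjusted p = 0.00765), a call lost without wild-type embryo 3. Gbp3 followed the same order on the 10 h arrays labelled knock-out, at 6.37, 4.64 and 4.12, and was called in neither genotype.

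**Figure D2:**
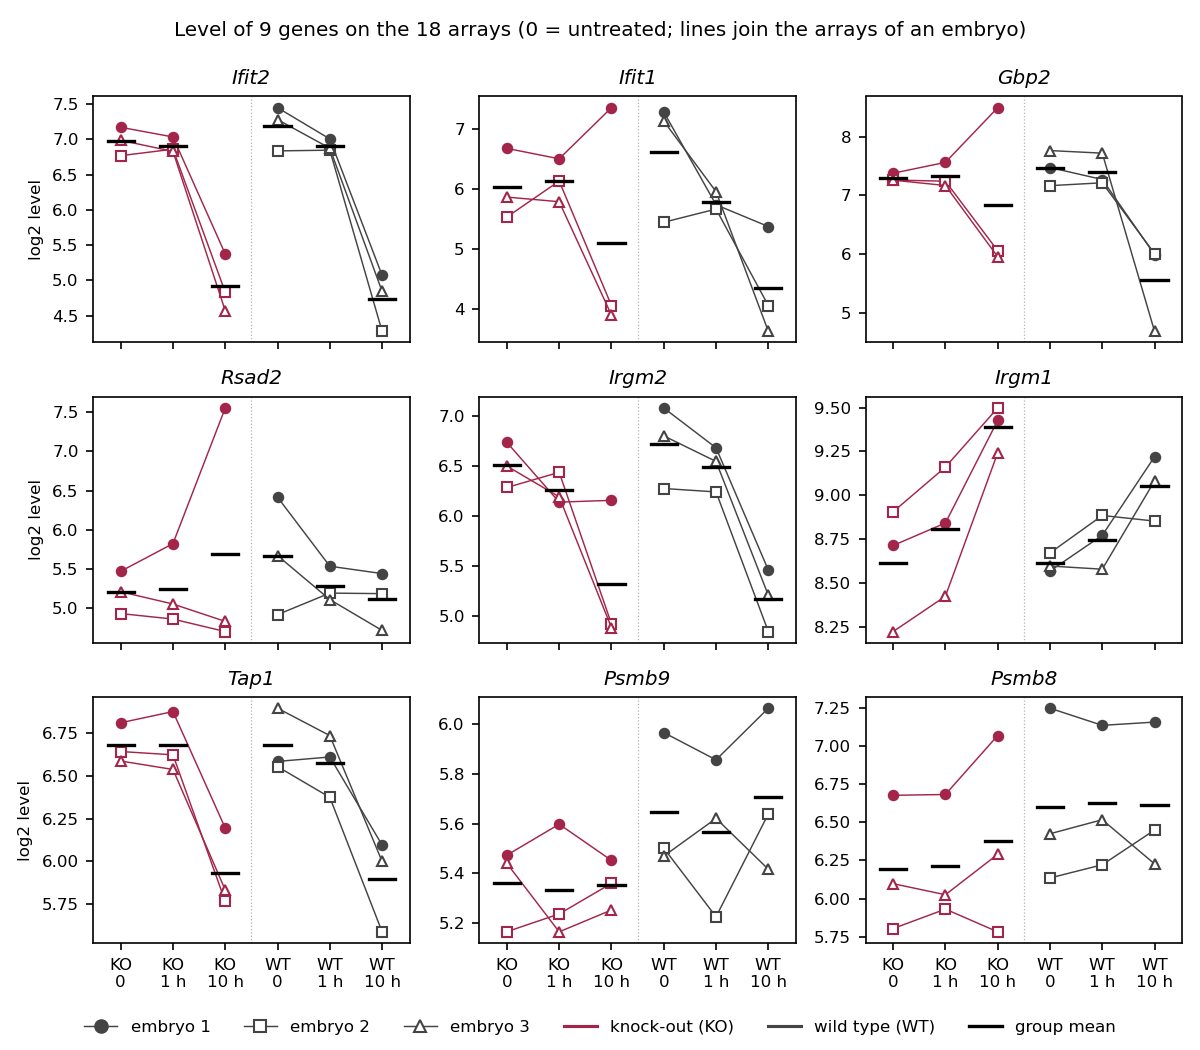
Log2 level of 9 genes on the 18 arrays, with untreated, 1 h and 10 h from left to right, first for cells labelled knock-out and then for wild-type cells; thin lines join the arrays of an embryo and thick bars are group means. Ifit2, Irgm2 and Tap1 drop at 10 h in both genotypes, Irgm1 climbs, Psmb8 and Psmb9 stay within the spread of the embryos, and embryo 1 labelled knock-out departs upward at 10 h for Ifit1, Gbp2 and Rsad2.

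In antigen processing, the called genes included a part of the peptide transporter and a part of the inducible proteasome, while their partners were not called. Tap1, which encodes a subunit of the transporter that moves peptides into the endoplasmic reticulum, read 6.19, 5.77 and 5.83 at 10 h against 6.81, 6.64 and 6.59 untreated in cells labelled knock-out, and 6.10, 5.59 and 6.00 against 6.58, 6.55 and 6.89 in wild-type cells. Every 10 h array was below every untreated one of its genotype, with changes of -0.75 ± 0.15 (adjusted p = 0.0014) and -0.78 ± 0.15 (adjusted p = 0.00106). Tap1 has 4 probe sets, and with the mean of all probe sets its call was lost in both genotypes. It held in the other 19 of 20 settings. Tap2, its partner, changed by -0.20 ± 0.22 and -0.38 ± 0.22 and was not called. Tapbp, which encodes tapasin and joins MHC class I to the transporter, was called lower in wild-type cells, at -0.46 ± 0.16 (adjusted p = 0.0351), and changed by -0.11 ± 0.16 in cells labelled knock-out. Its wild-type call was kept under 14 of 20 settings and lost when any 1 wild-type embryo was left out.

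Among the 3 subunits of the immunoproteasome, Psmb10 fell in both genotypes, with changes of -0.52 ± 0.15 (adjusted p = 0.0153) and -0.68 ± 0.15 (adjusted p = 0.00277). Its knock-out call was kept under 17 of 20 settings and lost without knock-out embryo 2 or embryo 3. Psmb8 read 7.07, 5.78 and 6.29 at 10 h against 6.68, 5.80 and 6.10 untreated in cells labelled knock-out, and 7.16, 6.45 and 6.23 against 7.25, 6.14 and 6.43 in wild-type cells. Embryo 1 was highest at both times in both genotypes, and the changes were 0.19 ± 0.37 and 0.01 ± 0.37. Psmb9, the neighbour of Tap1, changed by -0.005 ± 0.19 and 0.06 ± 0.19. B2m, the light chain of MHC class I, read 12.11, 12.28 and 12.22 at 10 h against 12.67, 12.67 and 12.30 untreated in cells labelled knock-out, and 12.55, 11.89 and 12.22 against 12.72, 12.58 and 12.54 in wild-type cells. Its changes were -0.34 ± 0.14 (adjusted p = 0.0793, and 0.0284 with embryo as a block) and -0.39 ± 0.14 (adjusted p = 0.0465); the second call was kept under 9 of 20 settings.

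Where a gene had further probe sets of its own, those tested went the same way or passed no threshold. Of 13 such probe sets, 4 were called lower in cells labelled knock-out and 9 in wild-type cells, and none was called higher in either genotype. Of all tested genes, each read from its brightest probe set, 20.7% and 18.8% were called lower. For some genes the call thus depended on the probe set. The other probe set of B2m was called lower in both genotypes, at -0.45 ± 0.14 and -0.47 ± 0.14. In wild-type cells, another probe set of Stat2 was called lower at -0.93 ± 0.22, and another of Trim25 at -0.78 ± 0.27. By contrast, further probe sets of Ddx58, Ifi35, Trim25 and Tapbp were called in neither genotype. That of Ddx58 changed by -0.23 ± 0.19 and -0.15 ± 0.19, and that of Ifi35 by -0.33 ± 0.17 and -0.41 ± 0.17. That of Tapbp changed by 0.44 ± 0.45 and 0.05 ± 0.45.

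The genes that surround these members in the pathway are read against the shares of all tested genes given above, 20.7% lower and 13.9% higher in cells labelled knock-out and 18.8% and 14.9% in wild-type cells. None of the 5 tested interferon and receptor genes was called at 10 h in either genotype, and 2 and 0 of them had an unadjusted p under 0.05. Of 8 genes for JAK-STAT signalling and its feedback, 2 were called lower and 1 higher in each genotype: the kinase gene Jak1, at -0.45 ± 0.16 (adjusted p = 0.0434) in cells labelled knock-out and -0.77 ± 0.16 (adjusted p = 0.00185) in wild-type cells, the STAT inhibitor Pias1, at -0.45 ± 0.13 and -0.35 ± 0.13, and the phosphatase Ptpn2, at 0.36 ± 0.13 and 0.36 ± 0.13. Of 13 adaptors of nucleic acid sensing and IRF family members, 2 were called lower in each genotype, among them Tlr3, the endosomal receptor of double-stranded RNA, at -0.69 ± 0.17 and -0.56 ± 0.17. None of 8 genes for MHC class I chains and peptide loading was called, and 1 and 2 of them had an unadjusted p under 0.05. Of 14 constitutive proteasome genes 1 was called in each genotype, Psma4, which was lower. Psmb7, named after its values were seen, was not called but read 9.12 on the 10 h array of knock-out embryo 1 and 8.62 on that of wild-type embryo 2, and 11.12 or more on the other 16 arrays. The lowest levels of Eif2ak2 and Jak1 at 10 h lay on these same arrays in each genotype; what sets the arrays apart was not tested.

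Whether the genotypes differed in this fall was tested directly, as the difference of the 10 h responses, and no member passed. The lowest adjusted p was 0.999, and limma called 0 of all 13679 genes, while 1 member, Parp9, had an unadjusted p under 0.05. The difference, knock-out minus wild type, was above zero in 32 of 38 tested members, with a median of 0.34 against -0.03 over all tested genes; not all of these fell, since Irgm1 stood higher at 10 h in both genotypes. This lean went with 1 array: without the 10 h array of knock-out embryo 1 the difference was above zero in 18 of 38, with a median of -0.00085. The choice to leave that array out was made after the data were seen. For Ifit2 the difference was 0.41, with a 95% interval from -0.23 to 1.05, and for Tap1 0.03, from -0.43 to 0.50. For Gbp2 it was 1.44, from -0.05 to 2.94, and that value contains the 10 h array of knock-out embryo 1. Knock-out against wild type within a condition gave 0 called members and 0% of all genes in each of the 3 conditions; an unadjusted p under 0.05 was reached by 1 member untreated, by 0 at 1 h and by 3 at 10 h.

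After 1 h of TGF-β1 no interferon or antigen processing gene passed the test. No member was called by limma in either genotype and none reached an unadjusted p under 0.05, where 0.0731% of all tested genes were called lower and 0.417% higher in cells labelled knock-out and 0.0804% and 0.504% in wild-type cells. The median change of the 40 members at 1 h was -0.04 in cells labelled knock-out and -0.17 in wild-type cells, and 22, 18 and 35 of 40 members were lower in embryos 1, 2 and 3 labelled knock-out and 36, 23 and 34 in the wild-type embryos. With embryo as a block, 0 members were called as well, while 1 and 5 had an unadjusted p under 0.05. Stat2 stood lower at 1 h in all 6 embryos, with blocked changes of -0.45 ± 0.22 (adjusted p = 0.99995) and -0.69 ± 0.22 (adjusted p = 0.282). Irf1 stood higher in all 6, with blocked changes of 0.27 ± 0.12 (adjusted p = 0.977) and 0.26 ± 0.12 (adjusted p = 0.548). Like Stat2, the members Bst2, Ifitm3 and Tap2 were lower in all 6. Between 1 h and 10 h, both under TGF-β1, 11 members were called lower and 1 higher in cells labelled knock-out, against 19.7% and 13.7% of all tested genes, and 15 lower and 0 higher in wild-type cells, against 18% and 15.3%. Without the 10 h array of knock-out embryo 1 the first count was 18. These counts use the same 10 h arrays as those against untreated cells.

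Embryos differed from each other in these genes more than in most others. In cells labelled knock-out the median SD of the 40 members over 3 embryos was 0.21 untreated, 0.21 at 1 h and 0.43 at 10 h, where the median of all tested genes was 0.14, 0.13 and 0.14. Wild-type cells gave 0.33, 0.18 and 0.28 for the members and 0.13, 0.11 and 0.16 for all tested genes. An SD above the 90th percentile of all tested genes was found for 12, 12 and 27 of the 40 members in cells labelled knock-out and for 22, 11 and 14 in wild-type cells. At 10 h in cells labelled knock-out the median SD was 0.48 in antiviral genes, 0.72 in GTPases and 0.32 in antigen processing genes; in wild-type cells it was 0.25, 0.31 and 0.29. Untreated wild-type cells had 0.36, 0.41 and 0.19.

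**Figure D3:**
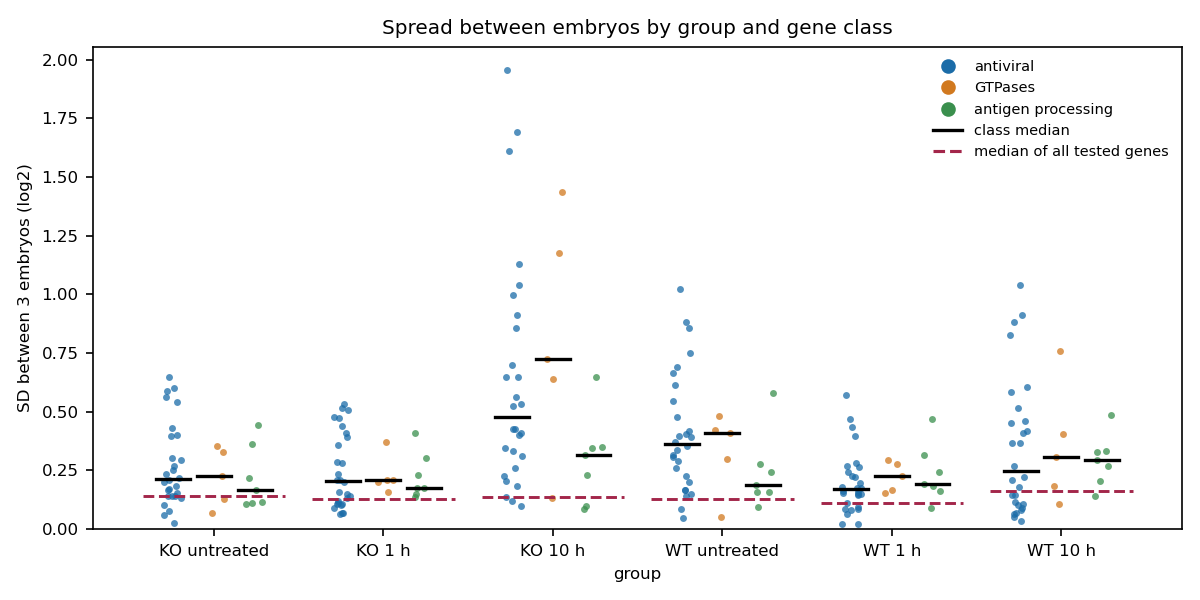
SD of the log2 level between the 3 embryos of each group, 1 point per gene and coloured by class, with class medians in black and the median of all tested genes dashed. The points of cells labelled knock-out at 10 h reach 1.96, and the class medians there lie at 0.48, 0.72 and 0.32.

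The spread of the 10 h group labelled knock-out went with 1 array. Embryo 1 had the highest level of 35 of 40 members there, and 33.5% of all tested genes were highest in it. The median change of the antiviral genes at 10 h was 0.02, -0.51 and -0.69 in embryos 1, 2 and 3 labelled knock-out, and -0.70, -0.57 and -0.96 in the wild-type embryos. For the GTPases it was 0.71, -0.68 and -1.01, against -0.82, -0.35 and -1.43. Antigen processing genes had medians of -0.26, -0.29 and -0.19, against -0.39, -0.36 and -0.64. Within that class embryo 1 labelled knock-out differed by gene: Tapbp changed by 0.23 in it and by -0.29 and -0.27 in embryos 2 and 3, and Psmb10 by -0.26, -0.71 and -0.58, while B2m changed by -0.56, -0.39 and -0.08. Without its 10 h array the class median was -0.30 instead of -0.20. A pair of genes outside the list, chosen after their values were seen, were also high on that array: the monocyte receptor Cd14 read 10.40, 6.62 and 6.96 at 10 h, and the cytokine feedback gene Socs3 read 8.58, 5.50 and 6.17.

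Embryo 1 was also the embryo with the most macrophage marker RNA in both genotypes. All 17 markers were highest in it in every group except the 10 h group labelled knock-out, where 16 were. Their mean level in embryos 1, 2 and 3 was 9.50, 7.78 and 8.36 at 10 h against 9.67, 7.95 and 8.35 untreated in cells labelled knock-out, and 10.14, 8.29 and 8.80 against 10.30, 8.84 and 8.69 in wild-type cells. Embryo 1 was thus highest before treatment too, none of the 17 was called at 10 h in either genotype, and their median changes were -0.12 and -0.08. In bulk RNA fewer cells of a type and less RNA per cell cannot be told apart. Of the 40 interferon and antigen processing genes, embryo 1 was highest in 29, 32 and 35 in cells labelled knock-out untreated, at 1 h and at 10 h, and in 25, 23 and 29 in wild-type cells. Without both embryos numbered 1 the 10 h comparison called 15 members lower in cells labelled knock-out and 22 in wild-type cells, where 12.7% and 13.2% of all tested genes were called lower. The part of macrophage RNA in the levels of these genes was not tested.

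**Figure D4:**
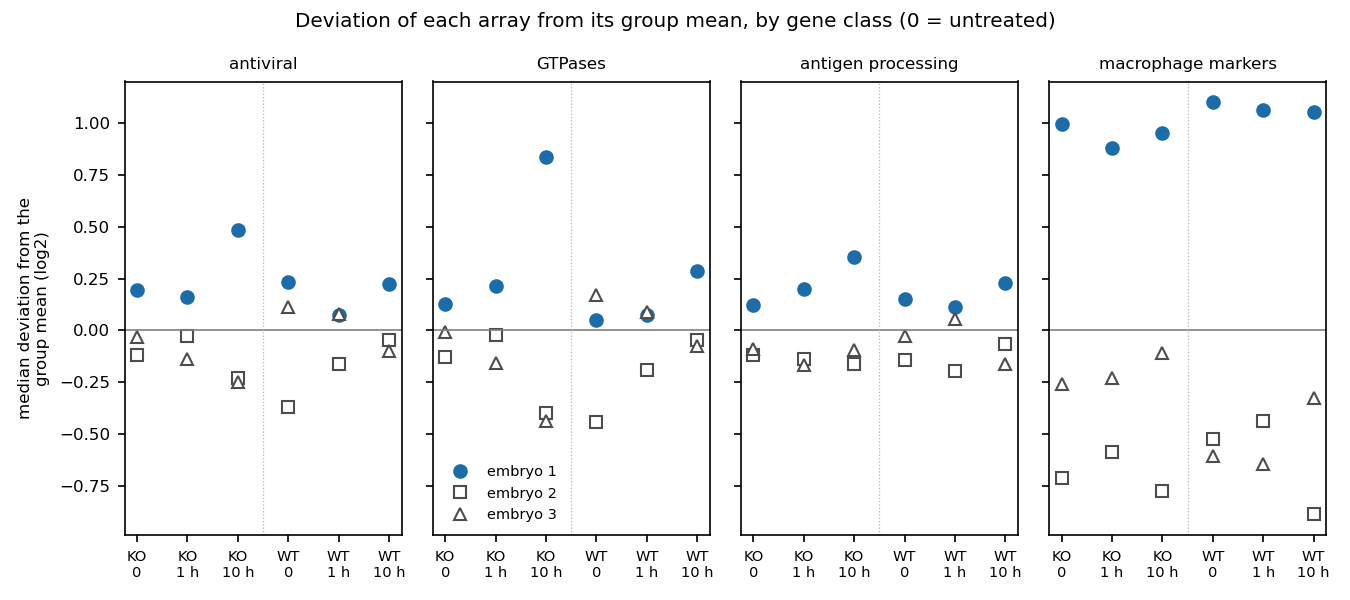
Median deviation of each array from its group mean for the 3 gene classes and for 17 macrophage markers, with the groups on the x axis and the embryos as symbols. Embryo 1 lies between 0.88 and 1.10 for the macrophage markers in all 6 groups, whereas for antiviral genes it stands at 0.48 in cells labelled knock-out at 10 h and at 0.23 or lower in the other 5 groups.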

How the data were processed

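Expression was measured on 18 Affymetrix arrays. The deposited values are log2 levels per probe set; RMA is the tool the authors used, per the submitters' processing notes. They ran from 2.49 to 14.47 and were used as deposited. The number of arrays, not a read depth, limits precision.

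The annotation gave 1 symbol to 34958 of 45101 probe sets, several to 932 and none to 9211. The test was that of limma 3.58.1 (R 4.3.3): a mean for each of 6 groups, 12 residual degrees of freedom, two-sided moderated p values, Benjamini-Hochberg adjustment over 13679 genes and a threshold of 0.05. The test was tried on simulated data. The 95% intervals use the moderated degrees of freedom.

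Per the labels an embryo's 3 arrays share its number. Between untreated and 10 h arrays the deviations from the group means correlated at 0.388, 0.344 and 0.282 in knock-out embryos 1, 2 and 3, at 0.487 in wild-type embryo 1, and at -0.06 and -0.20 in wild-type embryos 2 and 3, so changes per embryo and the block are less sure for these.

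All 42 members may be named; of other lists, the 3 with the smallest p at 10 h in wild-type cells or the 3 brightest markers. Members, lists and tests were chosen with earlier results of these data known. Alternatives covered the embryo as a fixed or random block, filters, normalization, the choice of probe set, moderation, the arrays in the fit and leaving out embryos or single arrays; leaving out single arrays was chosen after seeing the data.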

Additional observations from a re-analysis of the deposited data

How the results depend on the processing

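No class median at 10 h changed sign, but other results did not hold. Without all arrays of knock-out embryo 2 or 3, 5 or 3 of 38 members were called lower in cells labelled knock-out. These were smaller shares than the 17.6% or 14.4% of all tested genes. The difference of the 10 h responses was above zero in 32 of 38 members, and in 18 without the 10 h array of knock-out embryo 1. Leaving out each embryo in turn gave 3 to 15 members called lower at 10 h in cells labelled knock-out, against 13.8% to 21.1% of all tested genes. In wild-type cells it gave 12 to 22 (23 without the 10 h array of knock-out embryo 1), against 13.4% to 18.9%. Members called higher were 1 to 1 and 0 to 1. Between 1 h and 10 h it gave 2 to 13 and 7 to 17 lower, and 0 to 1 and 0 to 0 higher. Over the same settings the class medians at 10 h lay, for knock-out and wild type, between -0.60 and -0.35 and between -0.89 and -0.62 for antiviral genes, between -0.23 and -0.20 and between -0.51 and -0.37 for antigen processing genes, and between -0.81 and -0.04 and between -1.13 and -0.59 for GTPases.

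With the replicate block by embryo, 16 members were called lower at 10 h in cells labelled knock-out, and 1 higher in wild-type cells, both against untreated cells and against 1 h. A random block, or a fit of only the arrays compared, also called 1 higher in wild-type cells against untreated cells. Without the 10 h array of knock-out embryo 1, 19 were lower against untreated cells and 18 against 1 h; without that array and the 10 h array of wild-type embryo 2, 21 and 19 were. Between 1 h and 10 h 0 were higher in cells labelled knock-out in both of these settings, with only the arrays compared and without both embryos numbered 1; the last also gave 0 against untreated cells. The antigen processing median was -0.21 in wild-type cells with the mean of all probe sets, and in cells labelled knock-out -0.14 after a new quantile normalization and -0.30 without the 10 h array of embryo 1, alone or with the wild-type array. The causes were not tested, beyond the arrays left out. Of the calls at 10 h, 1 of 11 in cells labelled knock-out (Ifit2) and 10 of 21 in wild-type cells held in all 20 settings. For genes near the edge of the filter, such as Dhx58, dim signal limits what a change can show.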
